A study of Mus musculus with 6 samples.

Results

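The 38 genes described here drive or mark the cell cycle and DNA replication. They were taken from the annotated rows of the expression tables by gene name, 38 of 55359 annotated genes. The list of names was drawn up with earlier results of these data known, and no value entered the rule itself. They were sorted by role into 15 genes that act at S phase entry or in S phase, 20 genes that act in G2 or mitosis, and 3 D cyclins, which were kept apart. All 38 reached a mean of at least 1 TPM and were tested. TPM is a transcript's share of a library, corrected for length, so levels can be compared between genes.

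RNA came from whole brain of E18.5 mouse embryos, late in gestation, in 6 libraries. The 3 WT libraries carry normal PME-1, and the 3 S156A libraries come from mice with the PME-1 S156A knock-in. PME-1, the product of Ppme1, takes the carboxyl methyl group off the catalytic subunit of the phosphatase PP2A, and S156A replaces its active-site serine by alanine. Each library was made from 3 brains pooled before extraction, so the p-values measure the spread between pools and not between embryos. The labels give neither strain nor sex, and name the genotype only as WT or knock-in. Values below are given in the order replicate 1, 2, 3 of each genotype.

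A dividing cell first licenses its replication origins by loading MCM helicase rings, then passes from G1 into S phase through cyclin D and cyclin E kinases and E2F, copies its DNA, and enters mitosis through cyclin A and cyclin B with Cdk1. The anaphase-promoting complex (APC/C) then destroys the mitotic cyclins. PP2A with a B55 subunit removes Cdk1 phosphates at mitotic exit and is held back in mitosis by the Greatwall kinase. In late embryonic brain most neurons have left the cycle. Dividing cells lie in the ventricular and subventricular zones, the external granule layer of the cerebellum, and among glial precursors, microglia, vessel and blood cells.

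The 2 phases differ in the words their promoters hold, and both kinds of promoter are shown here because the comparison below sets the 2 phases side by side. RefSeq windows on build GRCm38.p6, the 250 bases before each gene's start, matched 12 of the S phase genes and 17 of the mitotic genes. Both strands were searched. The cell cycle homology region (CHR), bound by the MuvB complex, was searched as TTTGAA. It was in 8 of 17 mitotic windows (47.1%), in 1 of 12 S phase windows (8.33%) and in 16.0% of all 32851 windows. The mitotic genes with it were Ccnb2, Cdc20, Cdk1, Kif11, Mki67, Prc1, Top2a and Ube2c, and the S phase gene was Mcm2. E2F words were searched in the form TTCCCGC, with TTGGCGC, then TTCGCGC, and also TTGCCGC, of which TTGGCGC and TTCGCGC can overlap on opposite strands. They were in 5 of 12 S phase windows (41.7%), those of Cdc6, Mcm5, Mcm6, Mcm7 and Rrm2. Among mitotic windows 3 of 17 (17.6%), those of Ccnb1, Cdk1 and Mki67, had one, against 7.89% of all windows. CCAAT, the word of the factor NF-Y, was in 15 of 17 mitotic windows (88.2%), 7 of 12 S phase windows (58.3%) and 33.9% of all windows. These shares describe the windows, and a word that matches is not a measured binding site.

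The 5 windows below are examples chosen after the expression values were seen, from genes whose S156A and WT values did not overlap. They read 5′ to 3′ on the gene's strand, the last base lying just before the start. Capitals mark the E2F words in Mcm6 (chr1:128359706-128359955, minus strand) and Mcm7 (chr5:138171884-138172133, minus strand). In Cdc20 (chr4:118437344-118437593, minus strand), Ube2c (chr2:164769679-164769928, plus strand) and Kif11 (chr19:37376132-37376381, plus strand) they mark the CHR word, which in Ube2c and Kif11 stands on the opposite strand as TTCAAA. In Mcm6 each run in capitals is a TTGGCGC overlapped by a TTCGCGC on the other strand.
Mcm6: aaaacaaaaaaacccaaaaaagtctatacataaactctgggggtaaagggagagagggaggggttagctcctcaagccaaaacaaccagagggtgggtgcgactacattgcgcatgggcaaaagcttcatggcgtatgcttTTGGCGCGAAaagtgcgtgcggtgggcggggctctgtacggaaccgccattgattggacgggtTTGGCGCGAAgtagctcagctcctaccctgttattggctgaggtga
Mcm7: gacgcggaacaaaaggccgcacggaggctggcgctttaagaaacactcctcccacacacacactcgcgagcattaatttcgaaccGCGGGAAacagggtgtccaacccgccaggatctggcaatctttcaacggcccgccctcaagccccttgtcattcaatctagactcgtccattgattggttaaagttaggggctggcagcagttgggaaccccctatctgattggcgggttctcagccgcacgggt
Cdc20: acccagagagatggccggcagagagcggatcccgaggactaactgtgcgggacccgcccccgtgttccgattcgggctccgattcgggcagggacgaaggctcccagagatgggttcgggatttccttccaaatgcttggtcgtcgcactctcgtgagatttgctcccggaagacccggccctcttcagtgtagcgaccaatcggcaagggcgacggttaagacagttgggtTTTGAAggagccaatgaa
Ube2c: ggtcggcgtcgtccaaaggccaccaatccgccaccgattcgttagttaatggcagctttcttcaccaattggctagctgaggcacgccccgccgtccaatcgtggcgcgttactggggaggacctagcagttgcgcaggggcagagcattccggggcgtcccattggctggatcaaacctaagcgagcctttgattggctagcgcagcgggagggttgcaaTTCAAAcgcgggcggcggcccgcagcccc
Kif11: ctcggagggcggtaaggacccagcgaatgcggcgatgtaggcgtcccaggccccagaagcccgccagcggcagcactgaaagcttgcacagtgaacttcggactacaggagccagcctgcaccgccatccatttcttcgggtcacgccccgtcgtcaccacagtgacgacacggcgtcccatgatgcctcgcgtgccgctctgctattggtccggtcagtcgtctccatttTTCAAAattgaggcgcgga
The E2F runs of Mcm6 began 109 and 46 bases before the start, and the E2F word of Mcm7 began 165 bases before it. The CHR word began 18 bases before the start in Cdc20, 29 in Ube2c and 19 in Kif11. In these 3 mitotic genes it lay within the last stretch before the start.

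Comparing the genotypes asks how transcripts differ when PME-1 carries the active-site change. Of the 38 genes, 35 had a higher mean log2 value in S156A, against 61.7% of all tested genes, and 3 had a lower one, Ccne1, Ccne2 and Ccnd2. None passed limma at an adjusted p under 0.05 (Benjamini-Hochberg over 18893 genes, of which 0.159% passed), and the members' adjusted p lay between 0.135 and 0.99. At an unadjusted p under 0.05 there were 18 of 38 with higher values (47.4%), against 8.41% of all tested genes, and 0 with lower values, against 5.5%. That count of 18 was 5 without WT replicate 2 (against 4.7% of all genes), 11 without WT replicate 1 (6.15%), 12 without S156A replicate 1 (8.31%), 12 without S156A replicate 2 (5.68%) and 12 with trimmed-mean scaling (5.04%), each share being that of all genes in the same setting. S156A and WT values did not overlap, with S156A higher, in 20 of 38 genes (52.6%), against 13.7% of all tested genes. Non-overlap with S156A lower was found in 0 of 38, against 7.05% of all tested genes. The median log2 difference was 0.41 over the 38 genes and 0.089 over all tested genes. Log2 differences are of log2(TPM + 1), S156A minus WT, and understate those of genes with low TPM. In bulk tissue, more cells of a dividing type and more RNA of these genes per cell cannot be told apart.

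**Figure D1:**
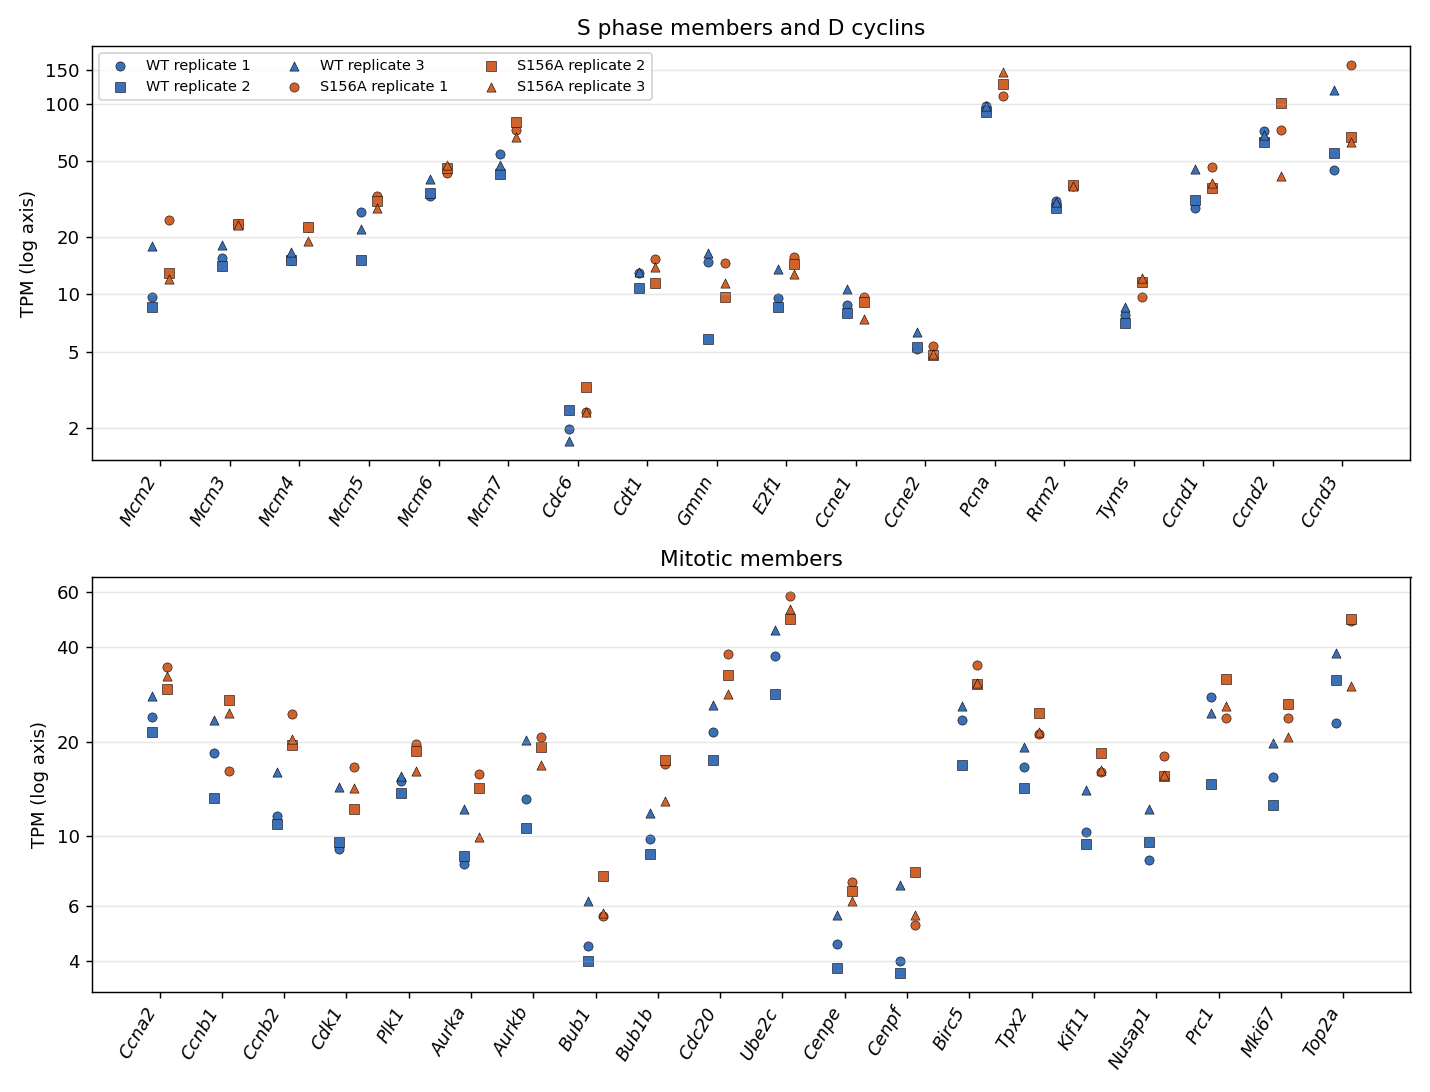
TPM on a log axis of each gene in each of the 6 libraries, WT in blue and S156A in orange, with S phase genes and D cyclins above and mitotic genes below. Each point is 1 library. In 20 of the 38 genes all 3 S156A points lie above all 3 WT points, and for most mitotic genes WT replicate 3 is the highest WT point.

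The 6 subunits of the MCM2-7 helicase, the ring that unwinds DNA ahead of the replication fork, all had higher means in S156A. Mcm7 (ENSMUSG00000029730.17, chromosome 5, 138162845 to 138170684, minus strand in the files' coordinates) was at 54.6, 42.9 and 47.9 TPM (WT) against 73.1, 79.8 and 66.7 TPM (S156A). Every S156A library was above every WT library, with 0.59 (SE 0.13) on the log2 scale and a limma adjusted p of 0.135, the smallest adjusted p of the 38. Mcm3 was at 15.5, 14.1 and 18.1 TPM (WT) against 23.4, 23.3 and 23.1 TPM (S156A). Its 3 S156A libraries were nearly level while WT spread more widely (log2 difference 0.53, SE 0.14, limma adjusted p = 0.20). Mcm4 was at 15.1, 15.2 and 16.6 TPM (WT) against 22.5, 22.7 and 19.1 TPM (S156A) (log2 difference 0.43, SE 0.14). Mcm6, the most abundant subunit after Mcm7, was at 32.8, 34.0 and 40.2 TPM (WT) against 43.2, 46.3 and 47.6 TPM (S156A) (0.35, SE 0.12). Mcm5 was at 27.2, 15.1 and 22.1 TPM (WT) against 32.8, 30.8 and 28.3 TPM (S156A) (0.53, SE 0.21). In these 5 subunits the groups did not overlap, which is 5 of the 9 licensing genes (55.6%, against 13.7% of all tested genes). In Mcm5 WT replicate 2 stood well under the other WT libraries, and WT replicate 1 came close to the lowest S156A library. Mcm2 was at 9.70, 8.62 and 17.9 TPM (WT) against 24.6, 12.9 and 12.1 TPM (S156A), with WT replicate 3 above 2 of the 3 S156A libraries (0.42, SE 0.35).

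The loading factors around the ring differed less. Cdc6, which with Cdt1 places the ring on the origin, was the lowest of the 38 genes, at 1.96, 2.47 and 1.70 TPM (WT) against 2.43, 3.27 and 2.43 TPM (S156A) (log2 difference 0.29, SE 0.25). Cdt1 was at 12.9, 10.8 and 13.1 TPM (WT) against 15.4, 11.4 and 13.96 TPM (S156A) (0.13, SE 0.18). The groups overlapped in both. Gmnn, the geminin gene, whose protein holds Cdt1 inactive from S phase to mitosis, was at 14.8, 5.81 and 16.5 TPM (WT) against 14.6, 9.72 and 11.4 TPM (S156A). Its mean TPM was lower in S156A (12.4 in WT and 11.9 in S156A) while its log2 difference was 0.05 (SE 0.37), the low WT replicate 2 weighing more on the log scale. A trimmed-mean scaling of the libraries turned that difference to -0.04.

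Among genes of G1/S entry, E2f1 differed in the direction of the helicase and the 2 cyclin E genes differed little. E2f1, a transcription factor that switches on S phase genes, was at 9.62, 8.60 and 13.7 TPM (WT) against 15.7, 14.5 and 12.8 TPM (S156A) (log2 difference 0.42, SE 0.21; limma adjusted p = 0.42). WT replicate 3 lay above S156A replicate 3, and the other S156A values lay above all WT values. Cyclin E activates Cdk2 at the G1/S boundary. Of its 2 genes, Ccne1 was at 8.84, 8.01 and 10.7 TPM (WT) against 9.74, 9.18 and 7.47 TPM (S156A) (-0.05, SE 0.19). Ccne2 was at 5.15, 5.27 and 6.34 TPM (WT) against 5.36, 4.84 and 4.85 TPM (S156A) (-0.13, SE 0.20). Both cyclin E genes overlapped between groups and had differences within their standard error, and that of Ccne1 turned positive without WT replicate 3 (0.05) or without S156A replicate 3 (0.05).

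The 3 genes of DNA synthesis all had groups that did not overlap. Pcna, the sliding clamp of the replicative polymerases and by mean TPM the most abundant of the 38 in both genotypes, was at 97.2, 90.3 and 97.7 TPM (WT) against 110, 127 and 146 TPM (S156A). The WT libraries lay close together and S156A spread upward from them (log2 difference 0.42, SE 0.12; limma adjusted p = 0.23). Rrm2, the small subunit of ribonucleotide reductase, which makes deoxynucleotides, was at 30.9, 28.4 and 30.4 TPM (WT) against 37.1, 37.5 and 36.9 TPM (S156A) (0.31, SE 0.11). Both genotypes were tight in Rrm2, with standard deviations of 1.32 TPM in WT and 0.302 TPM in S156A (n = 3 each). Tyms, thymidylate synthase, was at 7.81, 7.06 and 8.57 TPM (WT) against 9.74, 11.6 and 12.2 TPM (S156A) (0.46, SE 0.18). Over the 15 S phase genes 13 had higher mean log2 values in S156A (86.7%, against 61.7% of all tested genes) and 2 had lower ones. In 8 the groups did not overlap, with S156A higher (53.3%, against 13.7%), and the median log2 difference was 0.42.

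**Figure D2:**
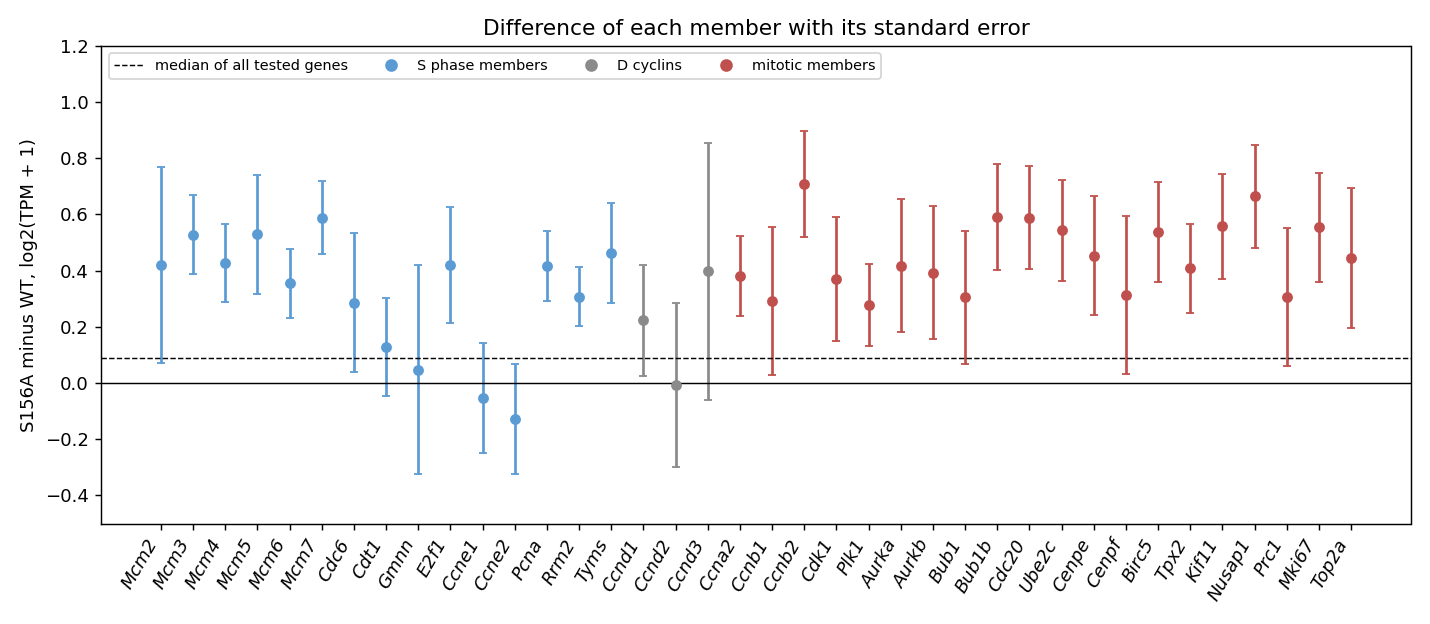
Log2(TPM + 1) difference, S156A minus WT, of each gene with its standard error from limma (3 libraries a group), coloured by phase. The dashed line is the median of all tested genes (0.089). All 20 mitotic genes and 13 of 15 S phase genes lie above 0.

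D cyclins start the G1 kinases Cdk4 and Cdk6 and, unlike the DNA synthesis genes above, differed mainly between libraries and not between genotypes. Ccnd1 was at 28.4, 31.4 and 45.3 TPM (WT) against 46.9, 36.2 and 38.3 TPM (S156A) (log2 difference 0.22, SE 0.20). Ccnd3 was at 44.7, 55.0 and 119 TPM (WT) against 160, 67.2 and 62.7 TPM (S156A) (0.40, SE 0.46; limma adjusted p = 0.74). The highest library of each genotype stood 2.38 times (WT replicate 3) and 2.46 times (S156A replicate 1) above the mean of the other two for Ccnd3. Without S156A replicate 1 the log2 difference of Ccnd3 was -0.03. Those 2 libraries are also the ones with the most skeletal muscle RNA. Acta1 codes for the actin of skeletal muscle. It was at 8.22, 333 and 2472 TPM (WT) against 2611, 17.7 and 18.7 TPM (S156A). Cdkn1c, a brake on cyclin kinases chosen here after its values were seen, was also highest in WT replicate 3 and S156A replicate 1. It was at 147, 179 and 579 TPM in WT and 590, 233 and 288 TPM in S156A. Unlike Acta1, it was lower in WT replicate 2 than in S156A replicates 2 and 3. Ccnd2 was instead highest in S156A replicate 2, at 71.9, 62.7 and 68.9 TPM (WT) against 72.5, 101 and 41.5 TPM (S156A). S156A held both its highest and its lowest library, and the mean TPM was 67.8 in WT and 71.7 in S156A while the log2 difference was -0.01 (SE 0.29). None of the 3 D cyclins had groups that did not overlap.

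**Figure D3:**
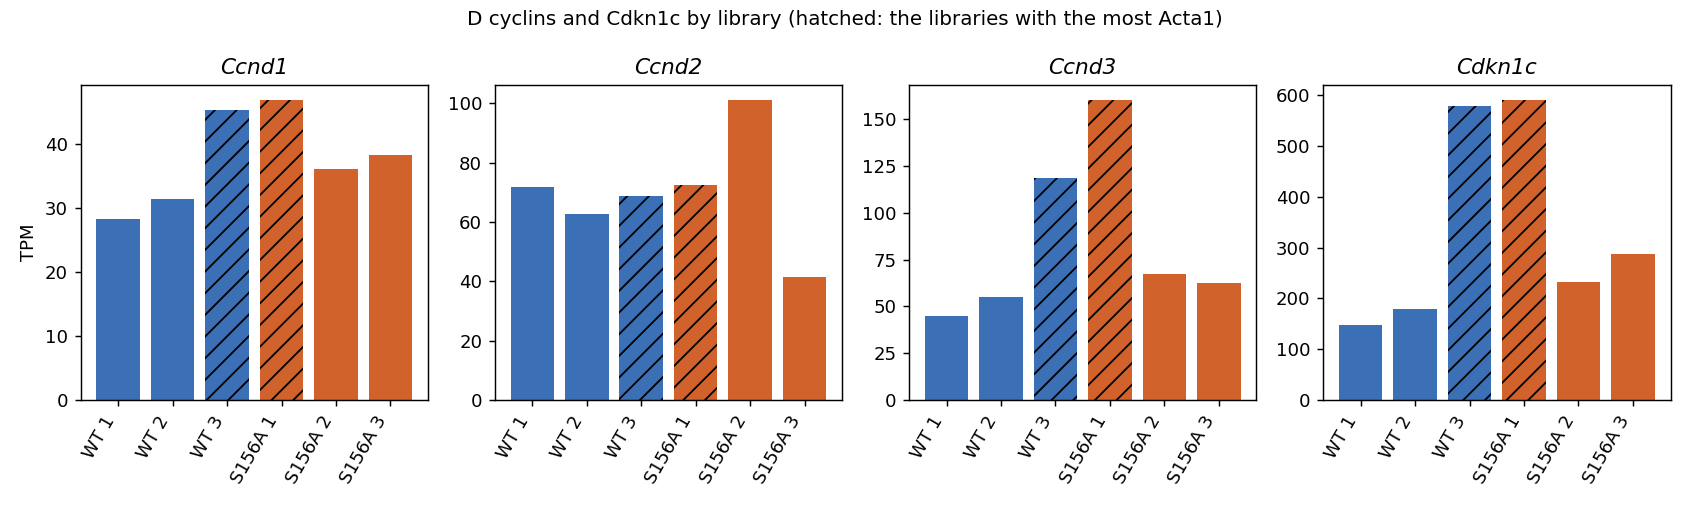
TPM of Ccnd1, Ccnd2, Ccnd3 and Cdkn1c in each library (bars, WT blue, S156A orange, hatched where Acta1 is highest, in WT replicate 3 and S156A replicate 1). Ccnd3 and Cdkn1c are highest in the hatched bars, at 119 and 160 TPM and at 579 and 590 TPM, and Ccnd2 is not.

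All 20 mitotic genes had higher mean log2 values in S156A, against 61.7% of all tested genes, and their median log2 difference was 0.43. In 12 of them (60%, against 13.7% of all tested genes) the groups did not overlap, with S156A higher. At an unadjusted limma p under 0.05 there were 10 with higher values (50%, against 8.41%). Among the mitotic cyclins and kinases, Ccnb2 (chromosome 9, 70314974 to 70328829, minus strand) encodes a cyclin B, the partner of Cdk1 at mitotic entry, and had the largest log2 difference of the 38. It was at 11.6, 10.9 and 16.1 TPM (WT) against 24.6, 19.5 and 20.4 TPM (S156A) (0.71, SE 0.19; limma adjusted p = 0.20). Every S156A library was above WT replicate 3, the highest WT library. The other cyclin B gene, Ccnb1, was at 18.47, 13.3 and 23.4 TPM (WT) against 16.1, 27.1 and 24.8 TPM (S156A) (0.29, SE 0.26), so here S156A replicate 1 lay among the WT values. Ccna2, cyclin A, which acts in both S phase and G2, was at 24.04, 21.5 and 28.0 TPM (WT) against 34.7, 29.4 and 32.3 TPM (S156A) (0.38, SE 0.14), with no overlap. Cdk1, the kinase of mitosis itself, was at 9.13, 9.56 and 14.4 TPM (WT) against 16.7, 12.2 and 14.3 TPM (S156A) (0.37, SE 0.22). Plk1, which drives centrosome maturation and mitotic entry, was at 15.02, 13.7 and 15.5 TPM (WT) against 19.6, 18.7 and 16.1 TPM (S156A) (0.28, SE 0.15), with the groups just apart. In Cdk1 WT replicate 3 overlapped S156A. The Aurora kinases overlapped between genotypes in the same way: Aurka of the spindle poles was at 8.19, 8.65 and 12.2 TPM (WT) against 15.8, 14.3 and 9.92 TPM (S156A). Aurkb of the centromeric passenger complex was at 14.7 ± 4.96 (WT) and 19.0 ± 1.98 TPM (S156A; SD, n = 3 each).

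The spindle checkpoint and APC/C genes had the highest median log2 difference of the mitotic groups, 0.57 over 4 genes. Cdc20, the activator that the checkpoint holds back until all chromosomes are attached, was at 21.5, 17.5 and 26.2 TPM (WT) against 38.04, 32.7 and 28.4 TPM (S156A) (0.59, SE 0.18; limma adjusted p = 0.25). Ube2c, the ubiquitin-conjugating enzyme of APC/C, was at 37.4, 28.3 and 45.2 TPM (WT) against 58.2, 49.3 and 53.1 TPM (S156A) (0.54, SE 0.18). Bub1b, whose protein BubR1 is part of the checkpoint complex, was at 9.82, 8.81 and 11.8 TPM (WT) against 17.0, 17.5 and 12.99 TPM (S156A) (0.59, SE 0.19). In these 3 of the 4 genes (75%, against 13.7% of all tested genes) the groups did not overlap. The gap between groups was smaller than the range within S156A. The checkpoint kinase Bub1 was at 4.47, 4.001 and 6.23 TPM (WT) against 5.57, 7.48 and 5.70 TPM (S156A), with WT replicate 3 above 2 S156A libraries (0.30, SE 0.24). Ube2c overlaps Tnnc2, a troponin gene of fast muscle, on the opposite strand. Tnnc2 was listed at 0 in WT replicate 1 and was at 120 and 980 TPM in WT replicates 2 and 3, and at 959, 12.3 and 5.21 TPM in S156A. Within each genotype Ube2c was highest in the library with the most Tnnc2, WT replicate 3 (45.2 TPM) and S156A replicate 1 (58.2 TPM). In the 2 S156A libraries with little Tnnc2 it was at 49.3 and 53.1 TPM. Whether Tnnc2 reads enter the Ube2c values was not tested. Strand use in the authors' quantification was not given in the sources used here.

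Among 7 kinetochore and spindle genes the median log2 difference was 0.45 and 5 did not overlap (71.4%, against 13.7% of all tested genes). Nusap1, which bundles spindle microtubules around chromosomes, was at 8.38, 9.56 and 12.3 TPM (WT) against 17.96, 15.6 and 15.6 TPM (S156A) (0.67, SE 0.18; limma adjusted p = 0.20). Kif11, the motor that pushes spindle poles apart, was at 10.3, 9.47 and 14.1 TPM (WT) against 16.0, 18.48 and 16.2 TPM (S156A) (0.56, SE 0.19). Birc5, survivin of the passenger complex, was at 23.4, 16.9 and 26.02 TPM (WT) against 35.1, 30.5 and 30.8 TPM (S156A) (0.54, SE 0.18). In all 3 genes the gap lay between WT replicate 3 and the lowest S156A library. The spindle assembly factor Tpx2 was at 16.7 ± 2.50 (WT) and 22.4 ± 1.98 TPM (S156A), and the kinetochore motor Cenpe at 4.66 ± 0.924 (WT) and 6.68 ± 0.466 TPM (S156A; SD, n = 3 each), both without overlap. Cenpf, another kinetochore protein, was at 4.004, 3.68 and 6.99 TPM (WT) against 5.20, 7.70 and 5.63 TPM (S156A) (0.31, SE 0.28). Prc1, which cross-links the central spindle, was at 27.7, 14.6 and 24.7 TPM (WT) against 23.8, 31.6 and 25.98 TPM (S156A) (0.31, SE 0.25). Cenpf overlapped through WT replicate 3, and Prc1 through WT replicates 1 and 3.

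The 2 usual markers of proliferating cells were both higher on average in S156A. Mki67, the Ki-67 antigen present throughout the active cycle, was at 15.4, 12.5 and 19.8 TPM (WT) against 23.7, 26.4 and 20.7 TPM (S156A). That is a ratio of means of 1.48 and 0.56 (SE 0.19) on the log2 scale (limma adjusted p = 0.29), with the groups just apart. Top2a, the topoisomerase that untangles replicated chromosomes, was at 22.99, 31.5 and 38.2 TPM (WT) against 48.5, 49.2 and 30.1 TPM (S156A) (0.45, SE 0.25). S156A replicate 3 lay below both WT replicates 2 and 3 in Top2a.

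Set against each other, the 2 phases had like medians between genotypes but unlike spread between WT libraries. The summed level of the 15 S phase genes was 344, 297 and 361 TPM in WT and 440, 445 and 445 TPM in S156A, a ratio of means of 1.33. This sum was nearly level over the S156A libraries, with a standard deviation of 2.90 TPM against 33.6 TPM in WT (n = 3 each). Its parts were not level: in S156A the licensing genes summed to 252, 240 and 225 TPM. The DNA synthesis genes ran in the opposite order, at 157, 176 and 195 TPM. On the mean log2 scale the standard deviation over the 15 genes was 0.065 in S156A and 0.177 in WT. The 20 mitotic genes summed to 306, 263 and 386 TPM in WT and to 465, 458 and 407 TPM in S156A, a ratio of 1.39. Both sums were higher in each S156A library than in any WT library. The gap was wider for S phase genes, where WT replicate 3 stood at 361 TPM and the lowest S156A library at 440 TPM. In mitotic genes WT replicate 3, at 386 TPM, came close to S156A replicate 3, at 407 TPM. The mean log2 level of the mitotic genes minus that of the S phase genes was -0.22, -0.19 and -0.01 in WT and -0.02, 0.08 and -0.05 in S156A. WT replicates 1 and 2 were thus lower in mitotic relative to S phase genes, while WT replicate 3 lay within the S156A range. This balance therefore did not separate the genotypes.

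WT replicate 2 was the lowest of all 6 libraries in 26 of the 38 genes, 16 of 20 mitotic and 10 of 15 S phase genes. WT replicate 3 was the highest WT library in 32 of 38, among them 19 of 20 mitotic and 11 of 15 S phase genes. S156A replicate 1 was the highest of all libraries in 18 genes, S156A replicate 2 in 14, and S156A replicate 3 and WT replicate 3 in 3 each. WT replicate 3 and S156A replicate 1 are also the libraries with the highest Acta1.

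The skeletal muscle list, 12 genes with Acta1 among them, summed to 17.9, 1096 and 8702 TPM in WT and to 8892, 74.9 and 62.1 TPM in S156A. All 12 had lower mean log2 values in S156A and none passed the test. Tnnc2 in WT replicate 1 was the 1 value listed at 0. Connective tissue genes followed a like order, with 171, 527 and 2316 TPM in WT and 2805, 398 and 395 TPM in S156A over 6 genes. Dividing cells outside the brain proper, such as muscle precursors and fibroblasts, also use the cell cycle genes. Myog, the factor of differentiating muscle, was at 1.10, 3.31 and 47.7 TPM (WT) against 59.6, 0.16 and 0.37 TPM (S156A). The comparison was therefore repeated without WT replicate 3 and S156A replicate 1. In the remaining 2 against 2 libraries both S156A values were above both WT values in 30 of 38 genes (78.9%), 10 of 15 S phase and 18 of 20 mitotic genes, against 32.5% of all genes tested there. At an unadjusted p under 0.05 there were 20 of 38 with higher values, against 10.7% of all genes, and limma called 0. The median log2 difference was 0.43 for S phase genes and 0.58 for mitotic genes. WT replicate 3, left out here, was the highest WT library in 32 of 38 genes, and S156A replicate 1 the highest S156A library in 21. WT replicate 2, the lowest of all libraries in 26 genes, was kept. Leaving out WT replicate 3 lowers the WT side in most members whatever the muscle RNA, so these values cannot show its part. WT replicate 2, kept in that comparison, had a muscle sum of 1096 TPM, against 74.9 and 62.1 TPM in the 2 S156A libraries kept, so muscle RNA was not level there either. Without the 2 muscle-rich libraries the log2 difference was 0.71 for Mki67, 0.77 for Ccnb2 and 0.58 for Mcm7 (limma adjusted p = 0.198, 0.137 and 0.198). With the Acta1 level as a covariate over all 6 libraries, 23 of 38 had higher values at an unadjusted p under 0.05, against 11.7% of all genes, and limma called 0, Ccnb2 having the smallest adjusted p of 0.0742.

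**Figure D4:**
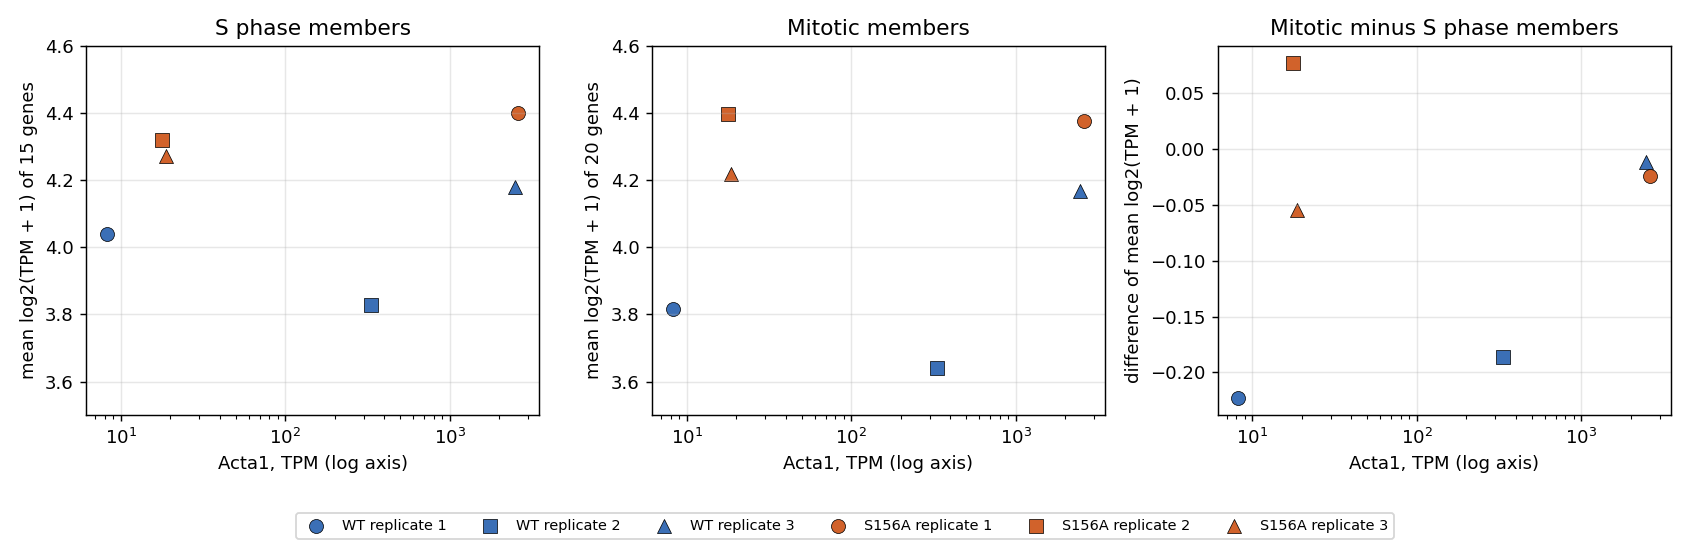
Mean log2(TPM + 1) of the 15 S phase genes (left) and the 20 mitotic genes (middle), and their difference (right), against Acta1 in TPM on a log axis. Each point is 1 library. At low Acta1 the S156A points (17.7 and 18.7 TPM) lie above WT replicate 1 (8.22 TPM), and at high Acta1 S156A replicate 1 lies above WT replicate 3 in both sets.

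The abundance tables also give the mean read depth per base, or coverage, of each gene, which was used as a second measure, scaled so that the annotated genes of a library sum to 1000000. The ratio of coverage to FPKM, relative to library depth, shows whether both measures move together. It moved by under 1.2 times in 26 of 38 genes, and by 1.5 times or more in 3, Mcm2, Ccnd2 and Top2a. In Mcm2 the coverage share was 13.9, 13.2 and 13.6 in WT and 18.1, 18.8 and 18.2 in S156A. The high TPM values of WT replicate 3 and S156A replicate 1 were absent on that scale, and the groups did not overlap (log2 difference 0.41, SE 0.10; limma adjusted p = 0.156). For Top2a the coverage share was 24.9, 22.98 and 30.4 in WT and 36.6, 42.8 and 39.6 in S156A (0.59, SE 0.13; limma adjusted p = 0.131), where S156A replicate 3 no longer lay among WT. Ccnd2 had shares of 37.6, 33.8 and 36.5 in WT and 38.1, 54.3 and 42.0 in S156A, which is 0.30 (SE 0.14) on the log2 scale (limma adjusted p = 0.368) in place of -0.01 by TPM. Over all members coverage gave 36 of 38 higher, 24 of 38 higher at an unadjusted p under 0.05 (10.2% of all genes) and 26 of 38 with no overlap (16.2% of all genes), of which 9 were S phase genes, 16 mitotic genes and 1 a D cyclin, Ccnd2. Limma called 0 of them.

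**Figure D5:**
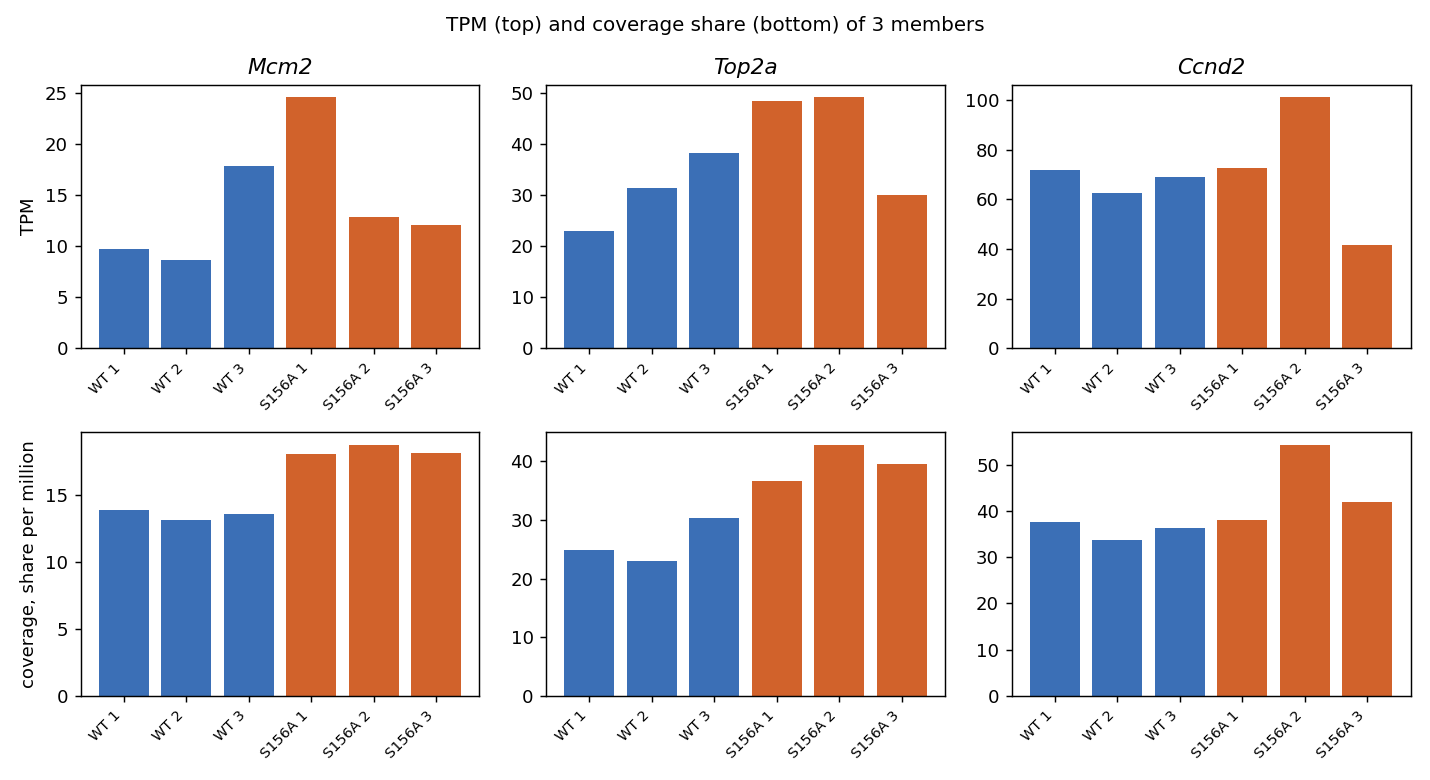
TPM (top) and coverage share (bottom, all annotated genes sum to 1000000) of Mcm2, Top2a and Ccnd2, bars from 0, 1 bar per library, WT blue and S156A orange. In Mcm2 and Top2a the S156A bars overlap WT by TPM and lie above all WT bars by coverage.

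Other genes of each phase were also described, on lists not used to choose the 38. They were read in the same 6 libraries, and the lists were drawn up with earlier results of these data known. Their values are therefore not separate support for those of the 38. Of 50 further S phase genes 47 had higher mean log2 values in S156A (94%, against 61.7% of all tested genes). In 20 the groups did not overlap (40%, against 13.7% of all tested genes), and the median log2 difference was 0.30, with 0 called. Tipin, of the fork protection complex, was at 24.8, 19.1 and 21.0 TPM (WT) against 32.0, 30.0 and 40.8 TPM (S156A) (0.64; limma adjusted p = 0.194). Rfc2, a clamp loader subunit, was at 43.7, 25.7 and 26.7 TPM (WT) against 50.4, 50.1 and 47.0 TPM (S156A). The coverage share of Tipin was 29.4, 28.8 and 31.3 (WT) against 33.9, 34.3 and 36.8 (S156A). That of Rfc2 was 20.6, 17.8 and 16.9 (WT) against 23.8, 21.4 and 22.0 (S156A). Their ratios of coverage to FPKM moved by 1.668 times (Tipin) and 1.605 times (Rfc2) between libraries. The size of both differences thus depends on the measure. Uhrf1, which carries DNA methylation through replication, was at 17.8, 18.6 and 20.7 TPM (WT) against 26.3, 25.6 and 23.8 TPM (S156A). Dtl, the substrate receptor that has Cdt1 destroyed, had the smallest adjusted p of the list (limma, 0.062). Its TPM was 1.64, 1.16 and 1.95 in WT and 7.29, 6.62 and 7.21 in S156A, but its coverage share was 2.48, 1.71 and 2.78 in WT and 3.51, 3.13 and 3.35 in S156A. The groups were apart on both scales, and the ratio of coverage to FPKM moved by 3.31 times between libraries, so the size of the Dtl difference depends on the measure.

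Of 56 further G2 and mitosis genes all 56 had higher mean log2 values in S156A, against 61.7% of all tested genes. In 23 the groups did not overlap (41.1%, against 13.7% of all tested genes), and the median was 0.40, again with 0 called. Cks2, a small subunit of the Cdk1 complex, was at 19.2, 16.7 and 29.4 TPM (WT) against 40.8, 32.4 and 35.5 TPM (S156A) (0.74; limma adjusted p = 0.221). Ncapd2, of condensin, was at 56.6, 39.2 and 51.3 TPM (WT) against 64.8, 76.3 and 62.4 TPM (S156A). Spc25, of the kinetochore Ndc80 complex, was at 12.2 ± 1.16 (WT) and 17.0 ± 1.30 TPM (S156A; SD, n = 3 each). In these 3 genes WT replicate 2 was the lowest library and the groups did not overlap. Psrc1, a spindle protein gene, was at 5.96, 6.24 and 13.3 TPM (WT) against 19.0, 19.1 and 16.6 TPM (S156A), with a coverage ratio that moved by 2.07 times.

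Of 19 tested kinases and brakes of G1, 16 had higher mean log2 values in S156A (84.2%, against 61.7% of all tested genes) and 3 had lower ones. The median was 0.24, with 0 called. The groups did not overlap in 5 with S156A higher (26.3%, against 13.7% of all tested genes). They did not overlap in 2 of the 19 with S156A lower, against 7.05% of all tested genes. Cdk4, the partner of D cyclins, was at 239, 205 and 223 TPM (WT) against 293, 327 and 314 TPM (S156A) (0.48, SE 0.11; limma adjusted p = 0.134). Cdkn2d, an inhibitor of Cdk4 kept on in postmitotic neurons, was at 67.6, 65.0 and 67.3 TPM (WT) against 46.7, 48.7 and 49.7 TPM (S156A) (-0.45, SE 0.09; limma adjusted p = 0.123). The kinase and its inhibitor thus lay on opposite sides, each without overlap. Btg2, an antiproliferative gene of neurogenic progenitors, was at 13.2, 9.73 and 17.6 TPM (WT) against 28.3, 24.4 and 27.9 TPM (S156A) (0.97; limma adjusted p = 0.136). Cdkn1b, the inhibitor p27, was at 68.1, 66.6 and 65.7 TPM (WT) against 80.1, 125 and 99.9 TPM (S156A). Of 7 genes of the Greatwall pathway, which meets PP2A-B55, 4 had higher and 3 had lower means, with a median of 0.01 and 0 called. Mastl, the Greatwall kinase, was at 1.34, 1.84 and 1.94 TPM (WT) against 2.65, 3.13 and 2.03 TPM (S156A) (0.41; limma adjusted p = 0.52). Ensa, which Greatwall turns into an inhibitor of PP2A-B55, was at 114 ± 7.58 (WT) and 104 ± 12.0 TPM (S156A; SD, n = 3 each). Ppp2r2c, a B55 subunit of brain, was at 160, 163 and 135 TPM (WT) against 91.6, 122 and 106 TPM (S156A) (-0.52; limma adjusted p = 0.20). Replication-dependent histone genes, whose transcripts lack a poly(A) tail, could be tested for 13 of 42, with a median of 0.08. That median was 0.61 when only genes averaging 5 TPM or more were kept, 0.38 without WT replicate 3, 0.55 without S156A replicate 2 and -0.10 without S156A replicate 1, so it has no stable size or sign. Their near-identical copies make single values uncertain, and 3 to 12 of them were listed at 0 per library.

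The identity of the tissue and of its dividing cells was checked with marker lists. Neuron markers (Tubb3, Snap25 and 4 others) summed to 4599, 4238 and 3310 TPM in WT and to 2440, 3512 and 3319 TPM in S156A, and no neuron, radial glia or progenitor marker was at 0. Of these 6 genes 5 had lower means in S156A and 4 did not overlap, S156A being lower (7.05% of all tested genes), with a median of -0.45 on the log2 scale and 0 called. Neuron markers thus differed in the opposite direction to the cell cycle genes. Markers of radial glia, the stem cells of the ventricular zone, had higher means in 8 of 8 genes, with sums of 2136, 1873 and 1813 TPM in WT and 2097, 2230 and 2531 TPM in S156A, and 1 of 8 did not overlap (12.5%, near the 13.7% of all tested genes). Of intermediate progenitor markers, 4 of 5 tested did not overlap, all higher in S156A (80%, against the same 13.7%), and the median log2 difference was 0.64. Eomes, their defining factor, was at 20.5, 16.1 and 13.03 TPM (WT) against 23.7, 28.7 and 25.6 TPM (S156A). Neurog2 was at 24.2, 16.4 and 12.0 TPM (WT) against 27.4, 28.1 and 26.3 TPM (S156A). Insm1, another progenitor factor, was at 43.6, 38.4 and 46.3 TPM (WT) against 56.0, 75.0 and 77.6 TPM (S156A). Gadd45g was at 29.0, 30.0 and 41.8 TPM (WT) against 48.3, 44.5 and 48.3 TPM (S156A), and Mfap4, the tested marker that overlapped, at 29.1, 51.3 and 142 TPM (WT) against 191, 67.2 and 57.9 TPM (S156A). WT replicate 3 was thus the lowest library in Eomes and Neurog2 and the highest WT library in Insm1, Gadd45g and Mfap4. The 6 listed markers summed to 147, 153 and 256 TPM (WT) against 348, 244 and 236 TPM (S156A).

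Other lists that can hold dividing cells differed in part with genotype. Interneuron progenitor markers summed to 215, 166 and 161 TPM in WT and to 208, 277 and 278 TPM in S156A. Oligodendrocyte precursor markers lay between 221 and 243 TPM in WT and between 229 and 252 TPM in S156A, and external granule layer markers between 193 and 210 TPM in WT and between 177 and 235 TPM in S156A. The sums of each of these lists overlapped between genotypes, WT replicate 1 lying above S156A replicate 1 for interneuron progenitors. Of the 6 interneuron progenitor genes all 6 had higher mean log2 values in S156A. In 2 of them the groups did not overlap (33.3%, against 13.7% of all tested genes). The oligodendrocyte precursor genes did not move alike. Gpr17 rose from 13.9, 13.3 and 10.6 TPM (WT) to 29.5, 34.8 and 31.1 TPM (S156A; limma adjusted p = 0.046), and Sox10 did not overlap either. Pdgfra, Cspg4 and Olig1 had lower means in S156A. Microglia markers, higher in all 8 genes, summed to 112, 130 and 193 TPM in WT and to 369, 338 and 404 TPM in S156A, with Cx3cr1 and Trem2 called by limma and no marker at 0. Erythroid genes, higher in 5 of 5 tested, summed to 13512, 10025 and 22254 TPM in WT and to 19303, 17112 and 24281 TPM in S156A. WT replicate 2 was lowest and WT replicate 3 was the highest WT library in the erythroid sum, as in the mitotic sum. Within S156A the orders differed: replicate 3 had the highest erythroid and the lowest mitotic sum. Choroid plexus markers, higher in 5 of 5 tested, lay between 1114 and 1527 TPM in WT and between 2321 and 3447 TPM in S156A. Endothelial markers summed to between 209 and 241 TPM in WT and between 260 and 268 TPM in S156A. Cldn5, the most abundant of them (mean 110 TPM in WT and 153 TPM in S156A), alone did not overlap. That is 1 of 6 (16.7%, near the 13.7% of all tested genes). Of these 6, 3 had higher and 3 had lower means, and the median log2 difference was 0.03. Anterior pituitary markers summed to 7.32, 12.0 and 132 TPM (WT) against 351, 192 and 161 TPM (S156A). Of 6 such genes 3 could be tested, all 3 with higher means in S156A, and 0 were called. Gh, growth hormone, was listed at 0 in WT replicate 1, with 1.69 and 97.1 TPM in WT replicates 2 and 3 and 310, 166 and 130 TPM in S156A. Prl and Pou1f1 were among the markers listed at 0, and WT replicate 3 was the highest WT library in the pituitary sum as in the mitotic sum. The part of these cell types in the cell cycle values was not tested.

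Some members share sequence with other genes. Of the 38, 10 overlap a tested gene on the opposite strand (Mcm7, Ccne2, Ccnd1, Ccnd3, Ccna2, Plk1, Cdc20, Ube2c, Nusap1 and Prc1), 2 overlap one on the same strand (Mcm7 and Cdt1), and 27 overlap none. A processed copy of Ccnb2, Ccnb2-ps, was listed at 9.01, 10.6 and 6.44 TPM (WT) against 10.5, 11.7 and 15.9 TPM (S156A). Reads can be split between Ccnb2 and that copy, so the Ccnb2 level is uncertain to that extent. Estimated depth was between 3.15 and 4.14 aligned gigabases per library, and between 18191 and 19270 annotated genes reached 1 TPM. The tables give abundances and not read counts, so no counting interval is given.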

How the data were processed

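The submitters' processing notes list StringTie 2.1.5, HISAT2 2.2.1 and Trim Galore 0.6.6. Per the file headers, each deposited table gives coverage, FPKM and TPM per gene, and the authors deposited 1 StringTie table per library. The deposited TPM values are shares of a library, so transcripts that take more of 1 library lower all others there. The notes give build hg38, but rows carry mouse Ensembl identifiers. Of 38190 genes matched by symbol 3.17% started within 1000 bases of their GRCm38.p6 position, so file coordinates are printed as given, with GRCm39 inferred. Annotated rows were used, with 7 repeated identifiers summed, and assembled loci were left out. The TPM of the annotated rows summed to between 93.1% and 95.8% of 1000000 in a library. That sum leaves out the assembled rows, which are also listed with TPM, so it is not a share of all listed TPM. The tables give abundances, not counts.

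The 18893 genes whose mean reached 1 TPM were tested on log2(TPM + 1) with limma 3.58.1 in R 4.3.3 (eBayes with trend, two-sided, Benjamini-Hochberg, threshold 0.05), and the fit was tested on simulated data. Groups and replicate numbers came from the sample titles. Numbers did not pair the libraries: same-numbered libraries had correlations of deviations of -0.548, 0.195 and -0.412. Alternatives covered unit, pseudocount, filter, scaling, eBayes settings, weights, the replicate block, left-out libraries and an Acta1 covariate; coverage was added after seeing the data. Leaving out the muscle-rich pair was decided with earlier results known. The members and gene lists were chosen with earlier results of these data known. All 38 members were named, and up to 4 genes with the smallest unadjusted p from each wider list; other genes were chosen after their values were seen, Acta1 apart. From the marker lists sums and single markers were given.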

Additional observations from a re-analysis of the deposited data

How the results depend on the processing

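None of the 38 genes was called by limma under any of the 21 alternatives, the smallest adjusted p being 0.0658 with library weights. At an unadjusted p under 0.05, 5 to 23 of 38 were higher in S156A with 1 library left out, fewest without WT replicate 2 (5, against 4.7% of all genes) and most without WT replicate 3 (23, against 10% of all genes). It was 11, 12, 12 and 14 without WT replicate 1 and S156A replicates 1, 2 and 3 (6.15%, 8.31%, 5.68% and 6.38% of all genes). Scaling gave 12 with a trimmed mean of M values and 14 with quantile normalization (5.04% and 5.65%), which moved the median of all genes from 0.089 to 0.0014 and 0.0174. Of 797 single-gene values 786 kept their direction. Gmnn turned to -0.0408 (trimmed mean of M values) and -0.0539 (quantile normalization), and Ccnd2 to 0.2964 (coverage). With 1 library left out the range was -0.3822 to 0.30 for Gmnn, -0.2975 to 0.3337 for Ccnd2, -0.1370 to 0.0506 for Ccne1 and -0.0319 to 0.8119 for Ccnd3. Over all genes the 30 calls became 0 with no filter (3364 at an unadjusted p under 0.05), 75 (trimmed mean), 52 (quantile), 16 (eBayes without trend), 309 (library weights), 6 without the muscle-rich pair, 338 (Acta1 covariate) and 0 to 70 with 1 library left out. With the replicate number as a block limma called 0 genes (1880 at an unadjusted p under 0.05), and 12 of 38 members were higher at that level (5.62% of all genes). By their labels these libraries share only a number, and whether it stands for a pairing is not known. The causes were not tested. Depth could not be read as counts, so no floor for low genes such as Cdc6 can be given.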
